A study of Mus musculus with 8 samples.

Results

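The genes described here encode the machinery that copies DNA and the enzymes that supply its nucleotides. They are 40 genes listed by symbol, from the origin recognition complex to cyclin E, and chosen with earlier results of these data known. Each was read from the brightest probe set that the platform annotation assigns to that gene alone. All 40 had a value among the 19938 genes measured. Dendritic cells are the antigen-presenting cells that start T cell responses, and the study sorted them by flow cytometry from 4 mice. Each mouse gave 1 bone marrow sample, labelled myeloid dendritic cells, and 1 spleen sample, labelled classical dendritic cells, so that 2 groups of 4 arrays were available. The mice of both groups were 8 weeks old and had the genotype CX3CR1-gfp/+, in which a reporter gene for green fluorescent protein takes the place of 1 copy of the fractalkine receptor. RNA was labelled from very small amounts and hybridised to Affymetrix mogene ST arrays. Which surface markers the sort used is not stated in the labels.

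DNA replication starts when the origin recognition complex, with Cdc6 and Cdt1, loads the ring-shaped Mcm helicase onto DNA, a step called licensing. Cdc45 and the GINS complex then switch the helicase on, and primase and the DNA polymerases copy the opened strands behind it. Most of these genes are transcribed as cells pass from G1 into S phase, under the control of E2F transcription factors, so in a sorted population their RNA is usually read as a sign of how much of it is dividing. Conventional dendritic cells arise from dividing precursors in the marrow, and part of the population in the spleen still divides.

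Intensities were on a linear scale with array medians between 125.1 and 135.0. No detection calls or background values were used here, so the level at which a dim gene leaves background is unknown, and array numbers rather than read depth limit the precision. Of 14 markers of dendritic cells, 5 were lower and 1 was higher in bone marrow, against 9.20% and 9.26% of all genes. Their summed intensity ranged over the arrays from 58939 to 63466 (bone marrow) and from 60574 to 64507 (spleen). The largest parts of these sums were H2-Ab1, at 15354 (bone marrow) and 14678 (spleen), and Cd74, at 12955 and 12578. The mean log2 intensity of the 14 markers above each array's median was 3.73 to 4.01 in bone marrow and 4.22 to 4.32 in spleen. Xcr1, a receptor of cross-presenting dendritic cells, had levels of 141 (bone marrow) and 1580.1 (spleen), and Zbtb46 and Flt3, a transcription factor and a growth factor receptor of the classical lineage, stood at 214 and 520.0 and at 1967 and 4078. The 8 markers that did not pass included Clec9a, at 1128 and 1043, Batf3, at 1676 and 1760, and Irf8, at 2428 and 2523. Cd209a, a lectin of monocyte-related dendritic cells, was the 1 marker that was higher in bone marrow, at 8152 and 4031. Throughout, differences are log2 intensity in bone marrow minus spleen, with the standard error (SE) of the linear model fitted in limma to all 19938 genes. The adjusted p-values come from the same model, Benjamini-Hochberg adjusted over all genes, with a threshold of 0.05 and n = 4 arrays per group. Levels are geometric means of the 4 arrays.

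Replication genes were lower in bone marrow dendritic cells than in those of the spleen. Of the 40 genes, 28 fell past the threshold and none rose, while over all genes tested 9.20% were called lower and 9.26% higher. With the dimmest 40% of genes left out, 39 of the 40 remained, and 14.5% of all remaining genes were called lower. The median difference of the 40 genes was -0.52, against -0.01 over all genes, and 4.62% of all genes had a difference below that median. The difference was below 0 in 38 of the 40, and in 52.2% of all genes. In 26 of the 40 every bone marrow array lay below every spleen array, which was so for 10.2% of all genes. In none of the 40 did every bone marrow array lie above every spleen array, against 10.4% of all genes. In 30 of the 40 the bone marrow array was the lower one in all 4 mice, against 15.6% of all genes. In bulk RNA of sorted cells, fewer dividing cells and less of these RNAs per cell cannot be told apart. The groups also differ in label, myeloid dendritic cells in bone marrow and classical dendritic cells in spleen. A difference of tissue and a difference of cell type therefore cannot be told apart either.

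**Figure D1:**
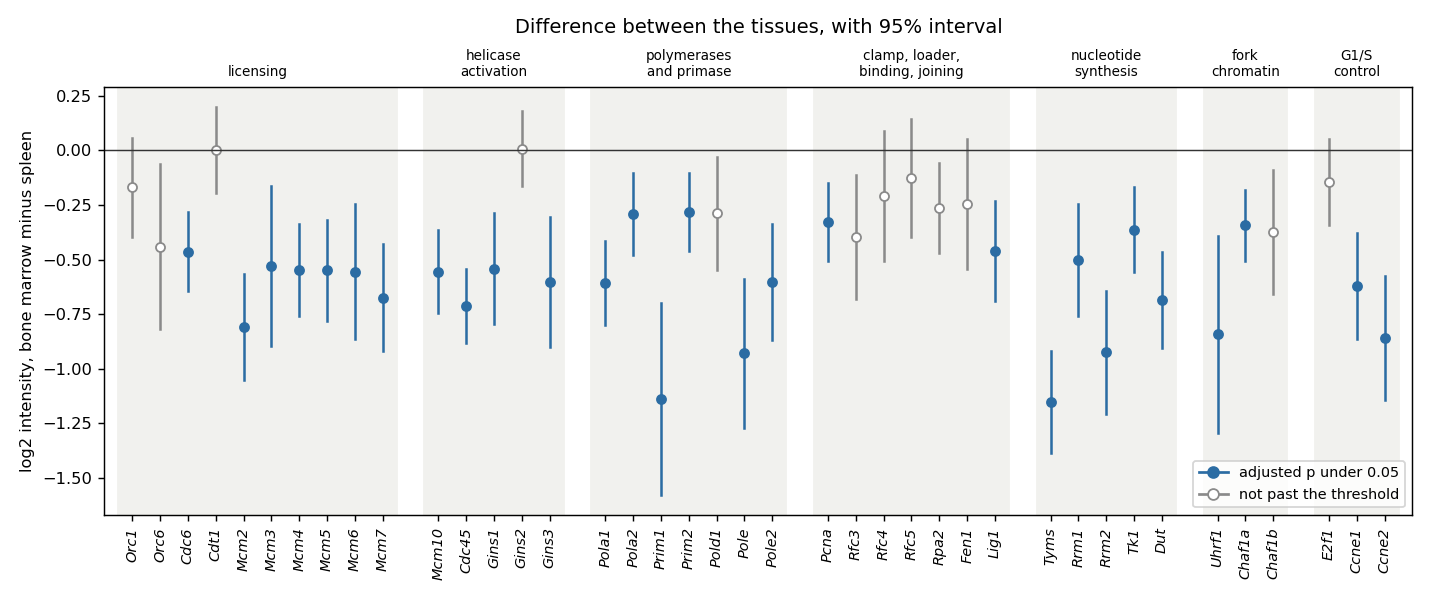
Difference of each of the 40 replication genes between bone marrow and spleen (log2 intensity, bone marrow minus spleen), by role. Points are the fitted differences and bars their 95% intervals; the 28 filled points passed the adjusted p threshold of 0.05, and 38 of the 40 points lie below 0.

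The sizes were modest and uneven. Differences ran from -1.15 for Tyms to 0.01 for Gins2, and both Tyms and Prim1 were more than 2-fold lower in bone marrow. Nucleotide synthesis genes had the lowest median difference of the 7 roles, -0.69, and all 5 fell. The group of clamp, clamp loader, single-strand binding and strand joining genes had the median nearest 0, -0.26, and 2 of its 7 members fell. These medians describe the groups and were not tested against each other.

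**Figure D2:**
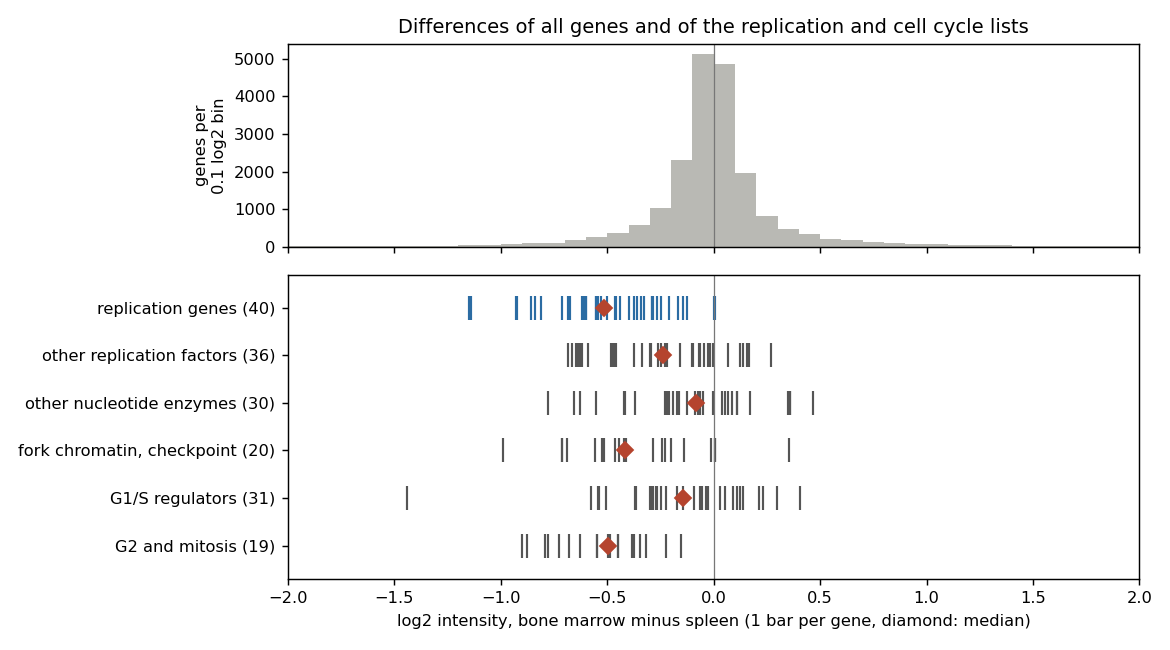
Log2 differences between bone marrow and spleen for all 19938 genes (upper panel, genes per bin; 167 genes lie beyond the axis) and for the 40 replication genes and 5 related lists (lower panel, 1 bar per gene, diamonds are medians). The median of the replication genes is -0.52 and that of the G2 and mitosis genes -0.50, while all genes centre at -0.01.

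Of the 10 licensing genes, 7 fell: Cdc6 and all 6 subunits of the Mcm2-7 helicase. Mcm2 stood at 401, 508, 434 and 569 in bone marrow replicates 1 to 4 and at 925, 837, 816 and 751 in spleen. The groups did not overlap (log2 difference -0.81 ± 0.11 SE, limma adjusted p = 0.00017). Mcm7 read 459, 451, 397 and 574 in bone marrow and 768, 782, 792 and 643 in spleen, a difference of -0.67 ± 0.11 (limma adjusted p = 0.00079). Its spleen replicate 4 stood apart below the other spleen arrays and still above every bone marrow array. Mcm4 and Mcm5 both differed by -0.55 with groups that did not overlap (limma adjusted p = 0.0013 and 0.0024). Mcm6 also differed by -0.55 (± 0.14 SE, limma adjusted p = 0.015), but bone marrow replicate 2, at 699.5, lay above spleen replicate 1, at 659.5. Its call ended without bone marrow replicate 3 (adjusted p = 0.051) or without spleen replicate 3 (adjusted p = 0.05005).

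Mcm3 was the weakest of the 6 subunits. It read 457, 669.9, 452 and 662 in bone marrow and 839, 889, 924 and 578 in spleen, so spleen replicate 4 fell inside the bone marrow range. The difference of -0.53 ± 0.17 passed narrowly (limma adjusted p = 0.045). It did not pass with the mouse as a block (adjusted p = 0.054), with median centring (0.088) or with a constant added to the intensities (0.084). Nor did it pass without bone marrow replicate 1 or 3, or without spleen replicate 1, 2 or 3 (adjusted p from 0.10 to 0.14).

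The loading factors split. Cdc6, the ATPase that recruits the helicase with Cdt1, read 164, 176, 167 and 184 in bone marrow and 212, 246, 259.5 and 238 in spleen (-0.46 ± 0.08, limma adjusted p = 0.0015). Cdt1, its partner in loading, stood at 268, 307, 271 and 343 in bone marrow and at 306, 289, 301 and 286 in spleen. The bone marrow values of Cdt1 spanned the spleen values, with a 95% interval of the difference from -0.19 to 0.20 (limma adjusted p = 0.99). Orc1, the ATPase subunit of the origin recognition complex, lay below the array median in every array, from 45.6 to 64.5, and its difference of -0.17 did not pass (limma adjusted p = 0.36). Orc6, the smallest subunit of the complex, had geometric means of 404 in bone marrow and 548 in spleen and was lower in all 4 mice (-0.44 ± 0.17, limma adjusted p = 0.11). It passed with the mouse as a block (adjusted p = 0.014) and without spleen replicate 1 (adjusted p = 0.017).

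Genes that activate the loaded helicase fell in 4 of 5 cases. Cdc45, the helicase co-factor, read 286, 301, 289.8 and 311 in bone marrow and 518, 485, 441 and 504 in spleen. The arrays of each group were tight, and the difference of -0.71 ± 0.08 had a limma adjusted p of 2.3e-05. Mcm10, a scaffold needed for activation, had levels of 221 (bone marrow) and 325 (spleen) (-0.56 ± 0.09, limma adjusted p = 0.00051). Of the GINS subunits, Gins1 and Gins3 fell by 0.54 and 0.60 on the log2 scale (limma adjusted p = 0.0048 and 0.0070), both without overlap between the groups. Gins2, a subunit of the same complex, stood at 274, 273, 287 and 318 in bone marrow and 284, 272, 289 and 300.5 in spleen. Its 95% interval ran from -0.16 to 0.18 (limma adjusted p = 0.98), so the bound excludes a fall of the size seen in Gins1. Leaving out spleen replicates 3 and 4 together ended the call of Gins3 (adjusted p = 0.079).

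Primase and polymerase genes held the widest range. Prim1, the catalytic subunit of primase, which lays the RNA primer, read 101, 168, 137 and 248 in bone marrow and 316, 329.9, 358 and 365 in spleen. It was 2.20-fold lower in bone marrow (-1.14 ± 0.20, limma adjusted p = 0.0013), with a spread among the bone marrow arrays far wider than among the spleen arrays. Prim2, the accessory primase subunit, was lower by only 0.28 on the log2 scale (limma adjusted p = 0.028). Pole, the catalytic subunit of the leading-strand polymerase epsilon, read 184, 260.4, 232 and 317 in bone marrow and 522, 503, 493 and 359 in spleen. The difference was -0.93 ± 0.16 (limma adjusted p = 0.00086), and as in Mcm7 spleen replicate 4 stood apart below the other spleen arrays. Pole2, the second subunit of that enzyme, fell by 0.60 (limma adjusted p = 0.0033).

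Polymerase alpha extends the primer, and both measured subunits fell, Pola1 from 455 in spleen to 299 in bone marrow (-0.61 ± 0.09, limma adjusted p = 0.00027) and Pola2 from 682 to 557 (-0.29 ± 0.09, limma adjusted p = 0.031). Pold1, the catalytic subunit of the lagging-strand polymerase delta, stood at 525 and 642 and did not pass (-0.29 ± 0.12, limma adjusted p = 0.13). Without spleen replicate 4, the array with its lowest spleen value, 506, Pold1 passed (adjusted p = 0.012). The small falls of Pola2 and Prim2 rested on few arrays. With the mouse as a block their adjusted p-values were 0.052 and 0.066, and with median centring 0.060 and 0.059. Pola2 lost its call on leaving out any 1 of bone marrow replicates 1 and 3 and spleen replicates 1, 2 and 3, with adjusted p-values of 0.056 to 0.10. Prim2 lost its call on leaving out any 1 of bone marrow replicates 1 and 3 and spleen replicates 2, 3 and 4, with adjusted p-values of 0.058 to 0.088.

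Pcna, the sliding clamp that holds polymerases on DNA, had a small and even difference. It read 3390.4, 3911, 3479 and 3812 in bone marrow and 4228, 4608, 4569 and 4925 in spleen. The groups did not overlap, and the difference of -0.33 ± 0.08 passed (limma adjusted p = 0.012). Another probe set named for Pcna gave the same difference to 2 decimals, -0.33. Lig1, the ligase that seals Okazaki fragments, had levels of 323 (bone marrow) and 444 (spleen) (-0.46 ± 0.11, limma adjusted p = 0.0073).

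The other 5 genes of this role did not pass. Rpa2, a subunit of the single-strand binding complex, had groups that did not overlap, 375 in bone marrow and 450.3 in spleen (-0.26 ± 0.09, limma adjusted p = 0.077), and passed without bone marrow replicate 4 (adjusted p = 0.038). The clamp loader subunits Rfc3, Rfc4 and Rfc5 differed by -0.40, -0.21 and -0.13 (limma adjusted p = 0.052, 0.41 and 0.64). Rfc3 passed with the mouse as a block (adjusted p = 0.014) and without bone marrow replicate 2 (0.048) or spleen replicate 1 (0.015). Fen1, the flap nuclease that trims Okazaki fragments, had levels of 245 (bone marrow) and 290.3 (spleen) (-0.25 ± 0.14, limma adjusted p = 0.30, 95% interval -0.54 to 0.05).

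All 5 nucleotide synthesis genes fell, and in each every bone marrow array lay below every spleen array. Tyms, the thymidylate synthase that makes dTMP from dUMP, read 334, 327, 290.2 and 393 in bone marrow and 757, 758, 635 and 834 in spleen. It was 2.22-fold lower in bone marrow (-1.15 ± 0.11, limma adjusted p = 5.6e-06). The difference within a mouse was nearly the same in all 4, between -1.21 and -1.08. Rrm2, the regulatory subunit of ribonucleotide reductase, read 240.2, 308, 278 and 338 in bone marrow and 559, 593, 630.5 and 432 in spleen (-0.93 ± 0.13, limma adjusted p = 0.00019). Rrm1, the large subunit of the same enzyme, differed by -0.50 (limma adjusted p = 0.0088).

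Dut, which clears dUTP and so feeds Tyms, fell from 239 in spleen to 149 in bone marrow (-0.69 ± 0.10, limma adjusted p = 0.00027). Tk1, the thymidine kinase of the salvage route, ranged from 527 to 542 across bone marrow arrays and from 588 to 782 across spleen arrays (-0.36 ± 0.09, limma adjusted p = 0.012). Another probe set of Tk1 gave -0.57.

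Among genes that rebuild chromatin behind the fork, Uhrf1, which reads hemimethylated DNA and brings in the maintenance methyltransferase, had the largest difference. It read 152, 281, 173 and 275 in bone marrow and 407, 455, 420.5 and 269.9 in spleen. In mouse 4 the bone marrow and spleen arrays were level, at 275 and 269.9, while in the other mice spleen was clearly higher (-0.84 ± 0.21 over all, limma adjusted p = 0.011). Chaf1a, the large subunit of the histone chaperone CAF-1, fell by 0.34 (± 0.08 SE, limma adjusted p = 0.0055), and Chaf1b, its partner, differed by -0.37 ± 0.13 and did not pass (limma adjusted p = 0.068). With the mouse as a block Chaf1b passed (adjusted p = 0.029), as it did without bone marrow replicate 2 (adjusted p = 0.040) or spleen replicate 4 (adjusted p = 0.014).

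The regulators of entry into S phase also split. Both E-type cyclins, which activate Cdk2 at that point, were lower in bone marrow in all 4 mice. Ccne1 read 288, 260.4, 255 and 343 in bone marrow and 454, 409, 389.7 and 506 in spleen (-0.62 ± 0.11, limma adjusted p = 0.0014). Ccne2 stood at 109 and 198 (-0.86 ± 0.13, limma adjusted p = 0.00037). E2f1, a transcription factor that drives this gene programme, read 409, 487, 499 and 460.1 in bone marrow and 572, 471, 492 and 518 in spleen. The groups overlapped, and the 95% interval of its difference ran from -0.34 to 0.05 (limma adjusted p = 0.37).

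**Figure D3:**
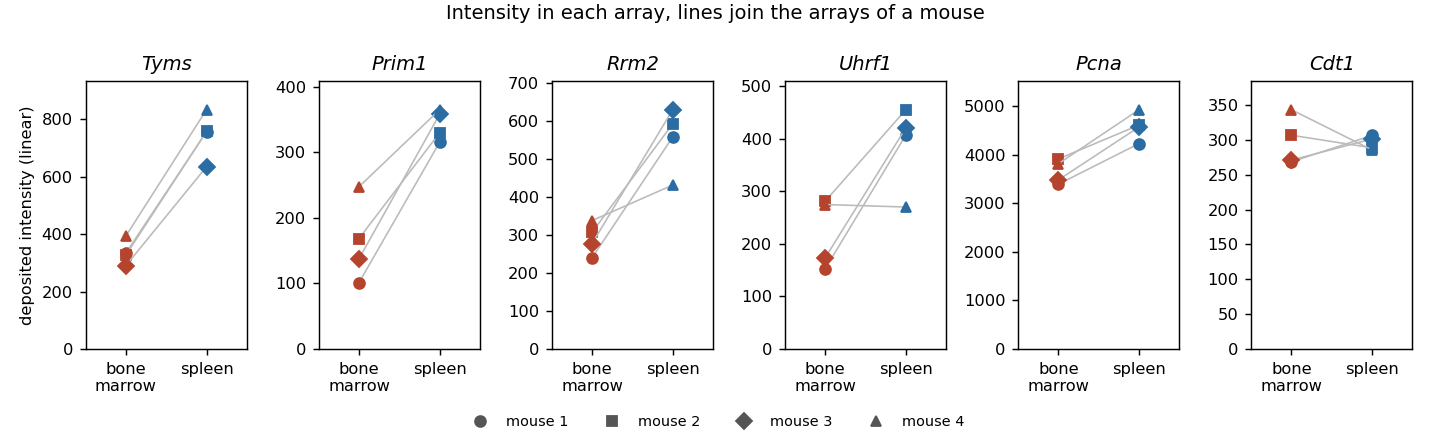
Deposited intensity (linear scale from 0) of 6 of the replication genes in the 8 arrays; marker shape gives the mouse and lines join its bone marrow and spleen arrays. Tyms falls by a like amount in every mouse, Uhrf1 is level in mouse 4, and Cdt1 overlaps between the tissues.

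Many of the genes shared an order of the bone marrow arrays. Bone marrow replicate 1 held the lowest bone marrow value in 24 of the 40 genes and replicate 3 in 13, whereas over all genes they were lowest in 21.8% and 20.7%. Bone marrow replicate 4 held the highest value in 24 and replicate 2 in 13, against 24.2% and 19.7% of all genes. The mean log2 intensity of the 40 genes, taken above each array's median, was 0.87, 1.21, 0.94 and 1.29 in bone marrow replicates 1 to 4. In spleen it was 1.54, 1.59 and 1.66 in replicates 1 to 3 and 1.502 in replicate 4, a narrower range that lay wholly above bone marrow.

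In spleen no array was set apart in the same way: replicate 4 was lowest in 16 of the 40 genes and highest in 10. It was low for Mcm3, Pole, Rrm2 and Uhrf1, and high for Tyms, Prim1, Pcna and Ccne1. The median difference of the 40 genes within a mouse was -0.54, -0.47, -0.63 and -0.26 in mice 1 to 4. Mouse 4, which joins the highest bone marrow mean to the lowest spleen mean, thus had the smallest gap. The genes share arrays, so these counts describe the arrays and are no test.

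**Figure D4:**
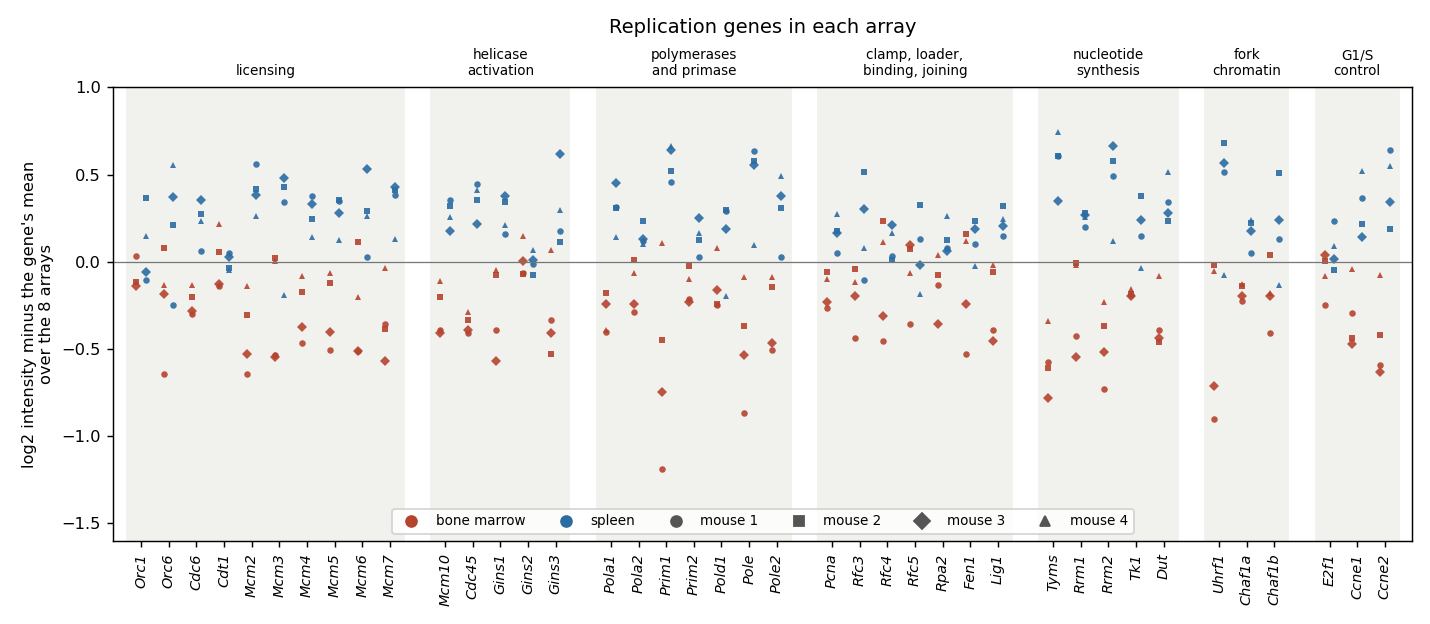
Log2 intensity of each of the 40 replication genes in each array, relative to that gene's mean over the 8 arrays, by role; colour gives the tissue and marker shape the mouse. Red circles (bone marrow, mouse 1) are the lowest bone marrow points in 24 genes, and red triangles (bone marrow, mouse 4) the highest in 24.

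Of 36 replication factors beyond the 40, 15 fell and none rose, with a median difference of -0.24. For this list and those that follow, the shares over all genes were 9.20% lower and 9.26% higher. Wdhd1, which links the helicase to polymerase alpha, had levels of 293 (bone marrow) and 464 (spleen) (-0.67 ± 0.10, limma adjusted p = 0.00047). Dscc1, part of an alternative clamp loader, fell by 0.65 (limma adjusted p = 0.00074), and Tipin, of the complex that protects the fork, by 0.68 (limma adjusted p = 0.019). The Tipin call ended without bone marrow replicate 1 (adjusted p = 0.056) or 3 (0.062) or spleen replicate 3 (0.052). Whether these factors differ from the 40 was not tested.

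Of 30 further nucleotide enzymes with a value, 6 fell and 1 rose, against 9.20% and 9.26% of all genes. Their median difference was -0.08, and that of all genes -0.01. Prps2, which makes the ribose phosphate donor of all nucleotides, fell from 721 in spleen to 421 in bone marrow (-0.78 ± 0.14, limma adjusted p = 0.0011). Mthfd2, a mitochondrial folate enzyme, and Ctps, a CTP synthase, fell by 0.66 and 0.63 (limma adjusted p = 0.00033 and 0.00052). Ctps2, the second CTP synthase, was the 1 gene that rose, from 594 in spleen to 820.2 in bone marrow (0.46 ± 0.07, limma adjusted p = 0.00043). The 2 CTP synthase genes thus differed in opposite directions. With the mouse as a block 3 genes of this list rose, and 2 rose without bone marrow replicate 1 or without spleen replicate 3 or 4.

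Of 20 other genes of fork chromatin and the replication checkpoint, 11 fell and none rose, with a median of -0.42. Hells, a chromatin remodeller needed for DNA methylation, had the largest fall, from 251 in spleen to 126 in bone marrow (-0.99 ± 0.15, limma adjusted p = 0.00038). Asf1b, a histone chaperone, and Brca2, a recombination factor, both fell by 0.71 (limma adjusted p = 0.0069 and 0.0035). Without spleen replicate 1 a gene of this list rose, 1 of 20.

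Of 31 further regulators of G1 and S phase, 8 fell and 1 rose. Ccnd1, cyclin D1, had the largest difference of all the replication and cell cycle genes listed here. It read 1436, 1844, 1414 and 2025 in bone marrow and 4476, 5191, 4417 and 4010.5 in spleen (-1.44 ± 0.12, limma adjusted p = 2.6e-06). Cdc25a, the phosphatase that activates Cdk2, and Fbxo5, an inhibitor of the anaphase-promoting complex, fell by 0.58 and 0.54 (limma adjusted p = 0.00032 and 0.0047). Cdk6, a kinase partner of D-type cyclins, was the 1 gene that rose (0.41 ± 0.10, limma adjusted p = 0.0089). The count of 8 was 4 without bone marrow replicate 1 and 5 without bone marrow replicate 3 or spleen replicate 2.

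Genes of G2 and mitosis were also lower in bone marrow: 12 of 19 fell and none rose, with a median difference of -0.50. Bub1, a kinase of the spindle checkpoint, and Kif11, a spindle motor, fell by 0.90 and 0.88 (limma adjusted p = 0.00033 and 0.0028). The mean of this list above the array median was 0.94, 1.57, 1.07 and 1.64 in bone marrow replicates 1 to 4, the same pair of low and pair of high arrays as for replication genes.

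Markers of other cell types moved between the same arrays. Of 10 monocyte and macrophage markers all 10 were higher in bone marrow, with a summed intensity of 31886 to 39752 there and of 4819.9 to 5757 in spleen. Of 10 late neutrophil markers 9 were higher (sums of 20837 to 28260 and of 2086 to 2944), and of 7 early neutrophil markers 6 (3629 to 4989 and 805 to 917). Early neutrophil, erythroid and early B cell populations are known to divide in the marrow. Of 10 erythroid markers 7 were higher and 1 lower in bone marrow (1468 to 2028 and 1251 to 1374), and of 10 early B cell markers 6 and 1 (1791 to 2186 and 1283 to 1383). Of the higher erythroid markers, Car1 had the largest gap, at 657 (bone marrow) and 155 (spleen). Ermap (186 and 116), Alas2 (155 and 95), Car2 (150 and 88), Epor (149 and 107) and Hemgn (118 and 91) were dimmer. Rhag (48 and 20) lay below every array median. The early B cell sums differ mainly through Blnk, at 566 (bone marrow) and 133 (spleen). The other higher early B cell markers were dim: Vpreb1 (176 and 76), Igll1 (172 and 124), Vpreb3 (130 and 90), Rag1 (94 and 54) and Dntt (61 and 43). Rag1 and Dntt lay below the array medians in both tissues. The lower erythroid marker was Tfrc, the transferrin receptor, at 162 (bone marrow) and 463 (spleen), which dividing cells of many types express.

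Lymphocyte markers went the other way. All 6 mature B cell markers were lower in bone marrow (sums of 953 to 1017 there and of 2813 to 3276 in spleen), as were 6 of 9 T and NK cell markers (1240.2 to 1572 and 3081 to 3408). The mature B cell sums differ mainly through Cd22, at 379 (bone marrow) and 1933 (spleen). Those of T and NK cells differ mainly through Klrd1 (661 and 1818) and Cd5 (172 and 600). Cd27 (69 and 85), Ncr1 (49 and 48) and Klrb1c (32 and 35) did not pass and lay below the array medians. Progenitor markers were mixed: of 7, 3 were lower and 2 higher (1 higher with the mouse as a block), with a median difference of -0.02. Their sums of 1060.2 to 1320.1 in bone marrow and 3991 to 5031 in spleen differ mainly through Kit, the stem cell factor receptor, at 289 and 3637. Of 7 plasmacytoid dendritic cell markers 3 were lower and 1 higher (3614 to 4731 and 3109 to 3641). The higher sums of bone marrow rest mainly on Bst2, the 1 that was higher, at 2536 and 1478. The lower ones were Spib (133 and 335), Ccr9 (84 and 231) and Siglech (173 and 218). Siglech passed in 10 of 17 alternatives. No probe set read 0 in any array (the lowest intensity was 5.2), so a reading above 0 does not show that a marker was expressed. The part of these markers in the lower replication genes of bone marrow was not tested.

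Among the bone marrow arrays alone, some marker lists shared the order of the replication genes, which had their lowest mean in replicate 1, then 3, then 2, and their highest in replicate 4, and others did not. Progenitor markers, at -0.11, -0.06, -0.06 and 0.17 relative to the array median in replicates 1 to 4, had that order, replicate 3 lying just below replicate 2. Single progenitor markers differed. Kit read 229.5, 332.2, 218.5 and 415.8, and Cd34 was highest in replicate 2, at 129.2. Sox4 (118.9, 81.0, 110.8 and 109.3) and Myb (188.9, 168.5, 222.5 and 210.2) were lowest in replicate 2. Plasmacytoid dendritic cell markers, at 0.77, 0.91, 0.85 and 1.01, also had the order of the replication genes. The dendritic cell markers, at 3.82, 3.94, 3.73 and 4.01, were likewise lower in replicates 1 and 3 than in 2 and 4, but lowest in replicate 3. Early neutrophil markers, at 1.56, 1.30, 1.5003 and 1.75, were highest in replicate 4 and lowest in replicate 2, the arrays with the highest replication means. Erythroid markers, at -0.13, 0.09, -0.08 and -0.27, were highest in replicate 2 and lowest in replicate 4. Monocyte and macrophage markers, at 4.16, 4.53, 4.35 and 4.17, were highest in replicate 2, with replicates 1 and 4 level. Late neutrophil (3.49, 3.25, 3.595 and 3.56), early B cell (-0.13, -0.04, 0.02 and -0.17), mature B cell (-0.16, -0.23, -0.20 and -0.22) and T and NK cell markers (-0.42, -0.60, -0.61 and -0.47) had other orders. With 4 arrays these orders are a description, and the part of these markers in the differences between mice was not tested.

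**Figure D5:**
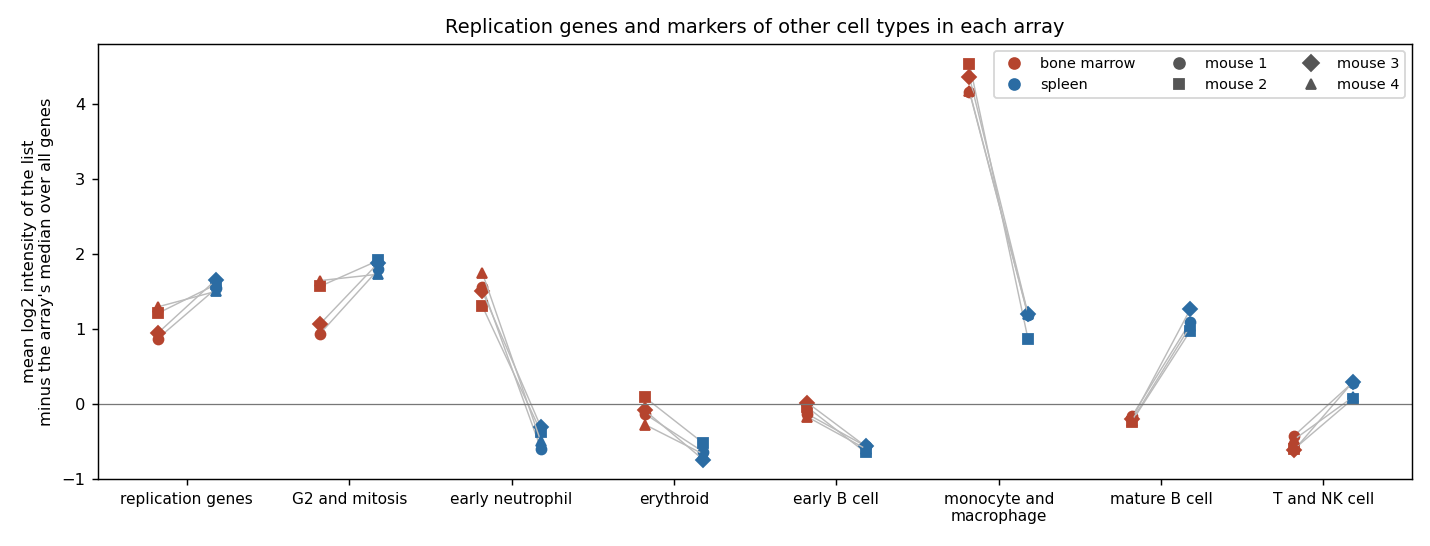
Mean log2 intensity of the replication genes, the G2 and mitosis genes and 6 marker lists in each array, minus the array's median over all genes; colour gives the tissue, marker shape the mouse, and lines join the arrays of a mouse. Replication genes range from 0.87 to 1.29 in bone marrow and lie higher in every spleen array, while early neutrophil and monocyte markers run the other way.

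Promoters of these genes are the textbook sites of E2F binding, and their sequences were read from RefSeq promoter windows (GRCm38.p6, 250 bases before to 50 after the start site). Of the 40 genes, 34 had a window. Each window was searched on both strands for the E2F-type letters TTTCCCGC, TTTGGCGC, TTTCGCGC and TTTGCCGC, matches that overlap being counted apart, and for CCAAT, which can share a C with the end of an E2F-type match. At least 1 E2F-type match stood in 14 of the 39 windows of these genes (35.9%) and in 2.26% of all 32851 windows in the table. CCAAT stood in 53.8% of the windows of these genes and 37.4% of all windows. By gene, 10 of 23 that fell and 4 of 11 that did not pass held an E2F-type match, so matches occurred on both sides of the threshold. CCAAT stood in 15 of the 23 and in 4 of the 11. Of all measured genes with a window, 3.48% held an E2F-type match and 41.7% held CCAAT. Differences between these shares were not tested. A match is a description of letters and not evidence of binding. The 40 are replication genes by choice, so their share of matches describes the list and not the difference between the tissues.

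Only some of the matches are shown, and those of Pold1 and Rfc3, which did not pass, are not among them. The sites below belong to licensing, polymerase and chromatin genes that fell, and to the licensing genes Orc1 and Cdt1, which did not pass. They are printed 5′ to 3′ along the gene's strand with the E2F-type match in capitals and up to 10 bases on each side.
Cdc6, fell by 0.46, chr11:98908003-98908030, plus strand: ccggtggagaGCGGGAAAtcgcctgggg
Mcm5, fell by 0.55, chr8:75109346-75109373, plus strand: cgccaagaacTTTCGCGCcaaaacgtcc
Mcm6, fell by 0.55, chr1:128359735-128359762, minus strand: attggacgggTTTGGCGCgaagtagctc
Mcm7, fell by 0.67, chr5:138172031-138172058, minus strand: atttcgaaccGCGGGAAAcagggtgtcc
Pole2, fell by 0.60, chr12:69228163-69228190, minus strand: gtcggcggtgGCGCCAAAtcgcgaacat
Uhrf1, fell by 0.84, chr17:56304118-56304145, plus strand: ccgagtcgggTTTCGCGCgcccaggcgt
Orc1, difference -0.17, not past the threshold, chr4:108579417-108579444, plus strand: tcggttagtgGCGCGAAAagttttctcc
Cdt1, difference 0.00, not past the threshold, chr8:122568037-122568064, plus strand: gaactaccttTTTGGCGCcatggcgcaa
The Cdt1 match begins 32 bases after the start site and the Orc1 match 27 bases before it. The Mcm5 match begins 153 bases before its start site and overlaps a match on the other strand that begins 149 bases before it. The Cdc6 and Mcm7 sites are both TTTCCCGC read on the opposite strand.

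Among genes with a window, the 2 with the lowest differences and the 1 with the highest are printed as the 250 bases before their start sites. Capitals mark CCAAT; none of these 3 upstream stretches holds an E2F-type match.
Tyms, fell by 1.15, chr5:30073626-30073875, minus strand: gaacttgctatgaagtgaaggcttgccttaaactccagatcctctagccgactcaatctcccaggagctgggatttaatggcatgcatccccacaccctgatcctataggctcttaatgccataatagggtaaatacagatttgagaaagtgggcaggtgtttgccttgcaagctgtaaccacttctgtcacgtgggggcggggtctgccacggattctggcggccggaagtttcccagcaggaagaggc
Prim1, fell by 1.14, chr10:128014965-128015214, plus strand: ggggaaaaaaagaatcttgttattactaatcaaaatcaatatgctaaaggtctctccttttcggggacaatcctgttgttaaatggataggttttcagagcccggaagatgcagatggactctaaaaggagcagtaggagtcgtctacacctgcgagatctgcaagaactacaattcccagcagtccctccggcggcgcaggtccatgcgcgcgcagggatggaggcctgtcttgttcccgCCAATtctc
Cdt1, difference 0.00, chr8:122567765-122568014, plus strand: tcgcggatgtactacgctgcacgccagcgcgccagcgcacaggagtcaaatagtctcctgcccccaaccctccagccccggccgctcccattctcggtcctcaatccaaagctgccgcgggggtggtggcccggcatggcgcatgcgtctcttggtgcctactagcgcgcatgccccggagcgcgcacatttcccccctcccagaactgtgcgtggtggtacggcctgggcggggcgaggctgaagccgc
Prim1 has 1 CCAAT, beginning 9 bases before the start site, and Tyms has neither motif. That a motif is missing says only that these letters are not in the window.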

How the data were processed

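Each array has 1 deposited linear intensity per probe set. The submitters' processing notes name Affymetrix Expression Console 1.4, and how the authors corrected, normalized and summarized the intensities is not given there. Of 35556 probe sets, 21789 named exactly 1 gene in the platform annotation of 2016, and the brightest of each gene was kept. Of the 40 genes, 2 (Pcna and Tk1) had a second probe set. The log2 of each intensity entered lmFit and eBayes of limma 3.58.1 (R 4.3.3), without a filter on dim genes, after a check on simulated data.

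The description labels give each mouse a number, which ties its 2 arrays to 1 replicate number. The deviations of a mouse's 2 arrays from their group means correlated across genes with Pearson's r of 0.096, -0.088, -0.178 and -0.054. The model has no term for the mouse; a replicate block was added as an alternative. P-values measure the spread between mice together with that of sorting and amplification. The fold change of a dim gene is compressed by the background under it.

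The members and lists were chosen with earlier results of these data known. Every member is described. Of each other list, text names come from the up to 3 genes with the largest difference in each direction among those past the threshold, or the 1 with the largest where none passed. Further markers are named where they show what a sum or mean rests on, or where they did not pass. Promoters are those of the 2 genes with the lowest and the 1 with the highest difference that have a window. Alternatives were quantile normalization, median centring, the dimmest 40% of genes left out, the mean of a gene's probe sets, a constant of 32 added to each intensity, an intensity trend, array weights, the replicate block, each array left out in turn, and spleen replicates 3 and 4 left out together.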

Additional observations from a re-analysis of the deposited data

Results flagged for a closer look

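In 80 groups of 4 arrays (40 genes in 2 tissues), 3 held an array set apart from the other 3 by Dixon's ratio (its 95% critical value for 4 samples), where chance flags about 1 group in 20. Orc1 in bone marrow replicate 1 read 51.4, above the other bone marrow arrays, in a gene that lay below the median of every array. Mcm7 in spleen replicate 4 read 643.0 and Pole in the same array 359.2, each below the other spleen arrays. Both genes kept their calls without that array.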

How the results depend on the processing

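Under the alternatives that keep all arrays, between 25 and 30 of the 40 genes were called lower, 28 with the replicate block (25 of them the same genes), and none was called higher. Leaving out 1 array gave 24 to 30, and leaving out spleen replicates 3 and 4 together gave 22 (20 of them the same genes). The median difference lay between -0.58 and -0.44. Of the 28 calls, 19 held under all 17 alternatives. Of the 12 genes not called, 7 passed under none. Without spleen replicates 3 and 4, Mcm6 (adjusted p = 0.14), Pola2 (0.085), Prim2 (0.21), Pole2 (0.054), Pcna (0.10), Rrm1 (0.065) and Chaf1a (0.051) were also lost, as was Tipin (0.11). Array weights let Pold1 (0.038) and Chaf1b (0.032) pass, and quantile normalization Rfc3 (0.044) and Rpa2 (0.046). Among the 40 genes the replicate block changed no call beyond those of Mcm3, Pola2, Prim2, Orc6, Rfc3 and Chaf1b.

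Cdt1, near 0, turned sign with array weights (-0.018), without spleen replicates 3 and 4 (-0.0073) and on leaving out 1 array (-0.069 to 0.049), and Gins2 on leaving out 1 array (-0.042 to 0.032). Other nucleotide enzymes called higher numbered 1, but 2 with quantile normalization or without spleen replicates 3 and 4, and 3 without the dimmest 40%, with array weights or with the replicate block (1 to 2 leaving out 1 array). G1 and S regulators called higher numbered 3 with quantile normalization and 2 with the added constant, and those called lower 4 to 8 leaving out 1 array. Fork chromatin genes called lower numbered 7 without spleen replicates 3 and 4. Leaving out 1 array gave 0 to 1 higher calls among fork chromatin genes and among other replication factors. The cause was not tested. Without background values, the signal over background that limits dim genes such as Orc1 is unknown.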
